A study of Danio rerio with 6 samples.

Results

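The secretory vesicle transport genes are the coat, adaptor, tether, SNARE, Rab, Vps and translocation genes that carry proteins into the endoplasmic reticulum (ER) and between the ER, Golgi, endosomes and plasma membrane. They were taken by gene symbol: every probe set whose single annotated symbol began with the family names of COPI and COPII subunits, sec, sar1, rab, arf, tmed, trappc, ap1 to ap4, vps, stx, snap, vamp, ssr or kdelr. The rule found 170 probe sets of 142 genes among the 15617 probe sets of the array, and no measured value entered it. Levels of messenger RNA were compared on 6 Affymetrix arrays of intact zebrafish embryos aged 25 hours post fertilization (hpf), 3 titled prdm1 mutant and 3 titled prdm1 WT (wild type), and the protocol text names the gene prdm1a. The mutant label states a null prdm1 genotype, and embryos were told apart by eye from their phenotype. The sources used here do not give the allele, the strain, the relation of the wild-type embryos to the mutants or the number of embryos per RNA sample. No agent or treatment is named for either group. Both groups went through the same Trizol extraction with carrier glycogen, ribosomal RNA reduction and whole-transcript amplification.

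Cargo enters the ER through the Sec61 translocon, leaves it in COPII-coated vesicles and is returned from the Golgi in COPI-coated vesicles. Adaptor complexes and clathrin sort cargo at the trans-Golgi network and endosomes, Rab GTPases mark each membrane, tethers such as TRAPP capture vesicles, and SNARE proteins fuse them. In zebrafish, mutants of the COPI genes copa, copb1 and copb2 are known for defects of the notochord, and mutants of the COPII gene sec23a for defects of cartilage. Prdm1a is a zinc finger transcription factor that directs the zebrafish fates of sensory neurons, neural crest cells and slow muscle fibres, and in the mouse its orthologue is needed for the secretory state of plasma cells. The comparison asks whether transcripts of the transport machinery differ between mutant and wild-type embryos. In RNA of whole embryos, fewer cells of a type and less RNA per cell cannot be told apart.

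Among the transport genes, 5 had a probe set that passed the test. A probe set of the COPI subunit gene copb2, the KDEL receptor gene kdelr2a and the SNARE gene snap29 was higher in the mutant. The probe sets of the TRAPP subunit gene trappc4 and the AP-3 adaptor gene ap3m1 were lower. Other probe sets of copb2, kdelr2a and snap29 did not pass, and that of snap29 was at a log2 fold change of -0.93. Of the 170 probe sets, 148 (131 genes) passed a filter that left out the dimmest 30% of the array by mean level over all 6 arrays, and 22 lay below it, among them every probe set of 11 genes. Each was fitted with limma on log2 signals, with Benjamini-Hochberg adjustment over all 10851 probe sets tested and a threshold of 0.05. Of the 148, 3 rose and 2 fell, which is 3.38% against 3.39% over all tested probe sets. By direction the background was 1.54% higher and 1.85% lower. The share of members called was therefore close to that of the array.

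The transport genes as a group lay near 0. Their median log2 fold change was -0.01, beside 0.02 over all tested probe sets, with 72 above 0 and 76 below. Their changes ran from -0.69 at the 5th percentile to 0.68 at the 95th, and 122 of 148 (82.4%) were smaller than 0.5 in size, against 75.8% of all tested probe sets. The 95% interval of the change lay within 2-fold in either direction for 115 of them (77.7%; 67.6% over all tested probe sets). Members were also brighter than all tested probe sets (median mean log2 signal 9.02 against 8.28). Their median SE was smaller (0.192 against 0.222). The part of signal level in these shares was not tested. The arrays of the genotypes did not overlap for 43 members (29.1%), 18 of them higher and 25 lower in the mutant. Over all tested probe sets this share was 27.0%, of which 13.2% were higher and 13.8% lower.

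Some measures of the arrays moved with genotype. For the gapdhs control, the signal of the 3' probe set divided by that of the 5' probe set, a sign of RNA quality, was 3.28 to 7.65 on the mutant arrays and 9.16 to 14.5 on the wild-type arrays. For actc1b it was 26.2 to 38.8 and 55.4 to 92.4. Of all 10851 probe sets, 368 passed without a covariate, 44 once the gapdhs ratio was in the fit and 26 with the actc1b ratio. Neither ratio overlapped between the genotypes, so these fits cannot tell RNA quality from genotype. Markers were listed for 7 tissues, and not every listed gene was measured. The array read 5 of 8 listed genes of the hatching gland, 8 of 10 of the notochord and 6 of 8 of neurons. It read 6 of 9 of fast muscle, 3 of 6 of slow muscle, 5 of 5 of neural crest and 6 of 7 of epidermis. Of the 47 probe sets of these genes, 46 lay above the filter. The summed signal of 7 fast muscle probe sets was 57213 to 77663 in mutant embryos and 38868 to 41372 in wild-type embryos. That of 3 slow muscle probe sets was 5295 to 7228 and 16363 to 18614. Of these 3, smyhc1 and myl13 passed as lower, and the dim prox1a was at 0.57 without passing (limma adjusted p = 0.388). For 5 neural crest probe sets the summed signal was 3378 to 4031 and 5316 to 6215. Of these, crestin, sox10 and mitfa passed as lower. The probe sets of tfap2a (-0.14) and foxd3 (-0.41, overlapping arrays) did not pass (limma adjusted p = 0.524 and 0.444). The ranges also did not overlap for the notochord (8 probe sets, 13861 to 16916 in mutant embryos and 8062 to 11807 in wild-type embryos). There 4 of 7 tested probe sets had separated arrays, all higher (13.2% over all tested probe sets), and none passed. They were those of the collagen and laminin genes col2a1a, col9a2, lamb1a and lamc1. Arrays overlapped for the notochord markers ntd5 (0.56), tbxta (0.27) and shha (0.04), with limma adjusted p of 0.245, 0.544 and 0.904. For the hatching gland (5 probe sets, 22306 to 24386 and 19131 to 20991) the separation came from agr2, the single marker of that list that passed. Without agr2, left out after its values were seen, the sums overlapped (17277 to 19428 and 17896 to 20081). The sums of neurons and epidermis overlapped, although 2 of 8 epidermis probe sets, of krt17 and epcam, passed as lower. The epcam call came from its dimmer probe set, and the brighter one was at -0.19 with overlapping arrays (limma adjusted p = 0.528). That dimmer probe set had a mutant mean log2 signal of 4.35, below the filter level, and a wild-type mean of 6.50. Arrays of krt4 (0.27) and of 1 tp63 probe set (0.22) were separated higher, and neither passed (limma adjusted p = 0.229 and 0.4). The part of these tissues in the results on transport genes was not tested.

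**Figure D1:**
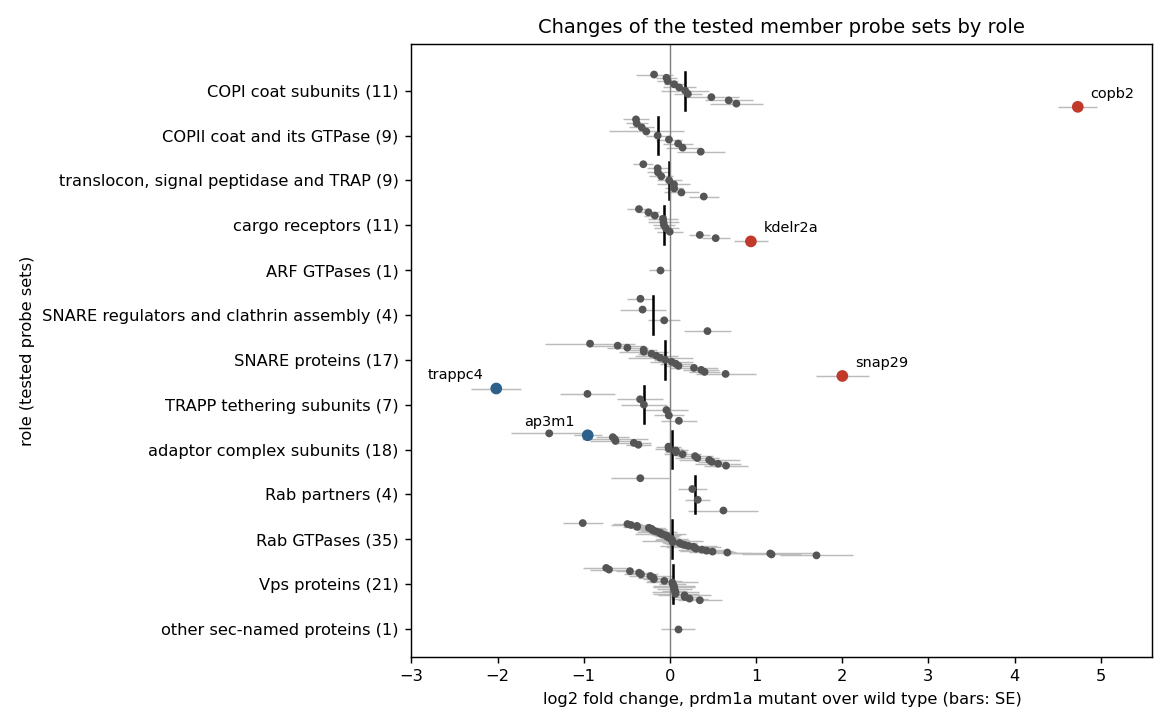
Log2 fold change of the mutant over the wild type for each of the 148 tested member probe sets, with its standard error, by role; black lines are medians of roles with more than 1 probe set, and large named points passed the test (red higher, blue lower). All but 8 of the points lie within 1 of 0, and copb2, at 4.73, stands far to the right of every other member.

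The COPI coat carried the member with the largest change. Of 11 tested probe sets of 7 coat genes, 1 rose, 10 did not pass and none fell, and their median log2 fold change was 0.18. The risen probe set, Dr.14687.1.A1_at, is annotated to copb2, which encodes the beta-prime subunit that recognizes sorting signals on cargo. Its signals were 2151, 3716 and 2955 on the mutant arrays and 97.5, 98.6 and 130.5 on the wild-type arrays. Every mutant signal was thus more than 10 times every wild-type signal, and the log2 means were 11.49 ± 0.40 and 6.75 ± 0.24 (SD, n = 3 each). The change was 26.6-fold, or 4.73 on the log2 scale (SE 0.23, limma adjusted p = 2.82e-05). It was 17.0-fold with 64 added to each signal and 48.2-fold with the actc1b ratio as a covariate. It passed in all 18 alternative fits, with a log2 fold change of 4.55 to 4.94 when single arrays were left out and of 4.85 and 5.59 with the gapdhs and actc1b ratios. The notochord markers given above had higher summed signals in the mutant, and their part in the copb2 value was not tested.

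The other copb2 probe sets did not show a change of that size. Of these, Dr.14625.1.A1_s_at had log2 signals of 9.91, 10.61 and 10.34 in mutant embryos and 10.35, 10.15 and 10.03 in wild-type embryos, so the genotypes overlapped. Its change was 0.11, with a 95% interval of -0.33 to 0.54 (limma adjusted p = 0.794). The third, Dr.14625.1.A1_at, had log2 signals of 9.64, 9.78 and 9.51 in mutant embryos and 9.46, 9.08 and 8.09 in wild-type embryos. Its arrays did not overlap, but the change of 0.77 (SE 0.31) did not pass (limma adjusted p = 0.201), and it was 0.38 without wild type replicate 3. The intervals of both lay below that of Dr.14687.1.A1_at (4.22 to 5.24). The sources used here do not say which transcript regions the 3 probe sets read.

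The partner subunits of the coat did not pass. The alpha subunit gene copa had its first probe set at 0.05 (95% interval -0.22 to 0.32, limma adjusted p = 0.85), and copb1, the beta subunit gene, was at -0.04 (-0.32 to 0.24, limma adjusted p = 0.889). A second copa probe set was at 0.48, with log2 signals of 6.81, 6.74 and 7.76 in mutant embryos and 6.78, 6.80 and 6.28 in wild-type embryos. The epsilon subunit gene cope, named after its values were seen, had log2 signals of 12.34, 12.35 and 12.36 in mutant embryos and 12.13, 11.97 and 10.90 in wild-type embryos. Its change of 0.68 (limma adjusted p = 0.205) was 0.30 without wild type replicate 3. The zeta subunit gene copz1, also named afterwards, went from 0.18 to -0.20 when that array was left out, and neither value passed. The gamma subunit gene copg2, named after its values were seen, was at -0.03 and -0.18 on its tested probe sets. The delta subunit genes arcn1a (-0.01) and arcn1b (0.02), which the symbol rule does not take, did not pass either (limma adjusted p = 0.984 and 0.946).

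**Figure D2:**
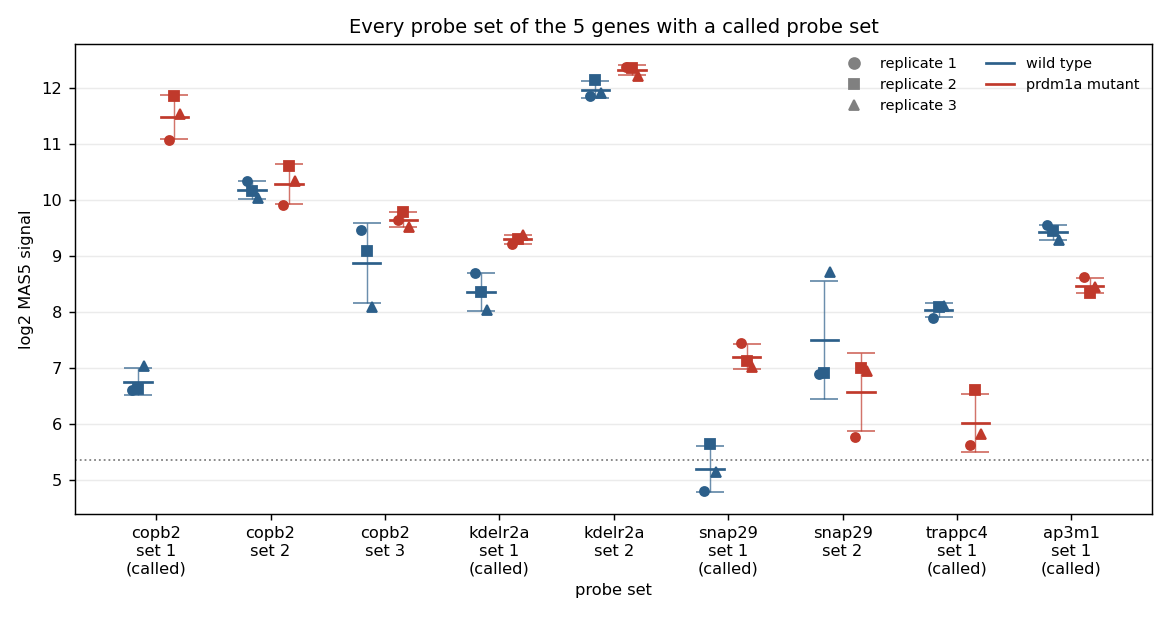
Log2 MAS5 signal on each array for every probe set of the 5 genes with a called probe set, numbered within each gene with the called probe set first; points are arrays (marker shape gives the replicate), short lines are means, bars are SD (n = 3) and the dotted line is the filter level of 5.36. The 3 copb2 probe sets and the 2 snap29 probe sets give different changes, while both kdelr2a probe sets lie higher in the mutant.

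Among cargo receptors, the KDEL receptor gene kdelr2a rose and the remaining 10 of 11 tested probe sets did not pass. KDEL receptors return escaped ER-resident proteins from the Golgi to the ER. The kdelr2a probe set Dr.12172.1.S1_at had signals of 592, 635 and 663 in mutant embryos and 414, 326 and 261 in wild-type embryos. The lowest mutant signal lay above the highest wild-type signal, and the log2 fold change was 0.94 (SE 0.20, limma adjusted p = 0.0365), or 1.92-fold. The other kdelr2a probe set, Dr.6631.1.A1_at, had log2 signals of 12.37, 12.36 and 12.21 in mutant embryos and 11.85, 12.14 and 11.91 in wild-type embryos. It also did not overlap, with a change of 0.35 (SE 0.12) that did not pass (limma adjusted p = 0.155). For kdelr3 the log2 signals were 9.68, 9.92 and 9.74 in mutant embryos and 9.23, 9.48 and 9.04 in wild-type embryos, a change of 0.53 that did not pass (limma adjusted p = 0.113). The kdelr2b probe set, named after its values were seen, was at -0.17 and overlapped between genotypes.

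The kdelr2a call was close to the threshold. It ended when any mutant replicate, or wild type replicate 2, was left out (log2 fold change 0.90 to 0.98, largest adjusted p in limma 0.132). In those fits 114 to 210 of all tested probe sets passed, against 368 with all arrays. The call held without wild type replicate 1 or wild type replicate 3, where 329 and 461 of all tested probe sets passed. The call also ended without the variance trend (limma adjusted p = 0.0638). It also ended with the gapdhs ratio (log2 fold change 0.66, limma adjusted p = 0.506) or the actc1b ratio (0.53, limma adjusted p = 0.606) as a covariate. The notochord sum and the hatching gland marker agr2, an ER protein gene of secretory cells, were also higher in the mutant. No other hatching gland marker passed, and the hatching gland sums without agr2 overlapped. Arrays also overlapped for the notochord markers ntd5, tbxta and shha. The part of these tissues in the kdelr2a value was not tested. The p24 family genes tmed2, tmed3, tmed4, tmed9 and tmed10 encode receptors that pack cargo into coated vesicles. They were named after their values were seen. All 7 of their tested probe sets, 3 of them of tmed3, were below 0 (5254 of 10851 over all tested probe sets). They ran from -0.36 for tmed9 to -0.002 for tmed2, with a median of -0.07, and none passed (smallest limma adjusted p = 0.189). The arrays of the genotypes were separated only for tmed9 among them, with log2 signals of 11.15, 11.20 and 11.06 in mutant embryos and 11.73, 11.46 and 11.30 in wild-type embryos.

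The COPII coat, which buds vesicles from the ER, had no member past the threshold. The median change over its 9 tested probe sets was -0.14 (log2), with 3 above 0 and 6 below. The arrays of the genotypes did not overlap for 3 of them, all lower in the mutant (13.8% lower and 13.2% higher over all tested probe sets). The GTPase gene sar1b, which starts coat assembly, had signals of 2108, 2125 and 2051 in mutant embryos and 2467, 2646 and 3128 in wild-type embryos. Its log2 fold change was -0.38 (SE 0.13, limma adjusted p = 0.14). The cargo-binding subunit gene sec24c was at -0.39 (SE 0.16, limma adjusted p = 0.196) and sec23b, named after its values were seen, at -0.33 (limma adjusted p = 0.238). At an unadjusted p under 0.05 in limma, these 3 genes were below 0 and none was above, with backgrounds of 10.3% lower and 10.2% higher over all tested probe sets. The sec23a probe set was at -0.14 with a 95% interval of -0.45 to 0.17 (limma adjusted p = 0.609). The outer coat gene sec31a was at -0.27, with a wide interval of -1.25 to 0.71 at a mean log2 signal of 6.17 in mutant embryos and 6.44 in wild-type embryos.

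At the ER membrane none of 9 tested probe sets passed. They read sec61a1a, sec61a1b and sec61g of the translocon, the signal peptidase gene sec11a, and ssr1 to ssr4 of the translocon-associated protein (TRAP) complex, with a median of -0.01 and a range of -0.31 to 0.39. The channel gene sec61a1a had log2 signals of 12.22, 12.18 and 12.19 in mutant embryos and 12.53, 12.65 and 12.33 in wild-type embryos. All mutant arrays were thus below all wild-type arrays, and the change of -0.31 did not pass (limma adjusted p = 0.183). The TRAP gene ssr4 was separated the other way, with log2 signals of 12.84, 12.84 and 12.86 in mutant embryos and 12.62, 12.70 and 12.03 in wild-type embryos. Its change of 0.39 (limma adjusted p = 0.238) was 0.18 without wild type replicate 3.

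The SNARE gene snap29 rose on 1 of its 2 probe sets. Snap29 is a SNAP-25 relative without a membrane anchor that takes part in fusion at the Golgi, endosomes and autophagosomes. Probe set Dr.18629.1.A1_at had signals of 175, 139 and 130 in mutant embryos and 28.0, 49.8 and 35.4 in wild-type embryos (log2 means 7.20 ± 0.22 and 5.20 ± 0.42, SD, n = 3 each). The log2 fold change was 2.0 (SE 0.30, limma adjusted p = 0.00974), or 4.0-fold, and the wild-type mean lay below the filter level of 5.36. With 64 added to each signal before the log it was 2.08-fold. The other probe set, Dr.8804.1.A1_at, pointed the opposite way: its log2 signals were 5.78, 7.0 and 6.95 in mutant embryos and 6.89, 6.91 and 8.71 in wild-type embryos. The genotypes overlapped there, and the change of -0.93 (SE 0.52) did not pass (limma adjusted p = 0.35). The 95% intervals of the 2 probe sets, 1.31 to 2.69 and -2.10 to 0.25, did not meet.

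The call of snap29 held without each single array, at a limma adjusted p of up to 0.0471. Those fits kept the filter on the mean level over all arrays. They therefore cannot check how this probe set, dim in wild-type embryos, came to be tested. A stricter filter on mean level left it untested. The snap29 call ended with the gapdhs ratio (2.29, limma adjusted p = 0.128) and the actc1b ratio (1.76, limma adjusted p = 0.344) as covariates. The other 16 of 17 tested SNARE probe sets did not pass, and their group had a median of -0.05. The synaptic genes snap25a (-0.21, 95% interval -0.58 to 0.15) and snap25b (-0.61, -1.29 to 0.08), which encode SNAREs of neurotransmitter release, did not pass (limma adjusted p = 0.502 and 0.297). The summed signal of the neuron markers (11 probe sets of 6 genes) was 5729 to 7202 in mutant embryos and 6036 to 6945 in wild-type embryos. Arrays were separated for 2 of these 11, both lower, against 13.8% separated lower over all tested probe sets. They were stmn2a (-0.66, limma adjusted p = 0.124) and gap43 (-0.28, limma adjusted p = 0.252), and no neuron marker passed. The Golgi syntaxin gene stx5al was at 0.40 (limma adjusted p = 0.245), with all mutant arrays above all wild-type arrays. Of the SNARE regulators, stxbp3 was at -0.34 (limma adjusted p = 0.258), and the clathrin assembly gene snap91b was at 0.44 (limma adjusted p = 0.401).

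The TRAPP subunit gene trappc4 fell, and the other 6 tested probe sets of this tethering complex did not pass. TRAPP complexes act on Rab1 in traffic from the ER and through the Golgi. The trappc4 signals were 49.2, 97.9 and 56.6 in mutant embryos and 237, 273 and 277 in wild-type embryos. The highest mutant signal was less than the lowest wild-type signal, with log2 means of 6.02 ± 0.52 and 8.03 ± 0.12 (SD, n = 3 each). The log2 fold change was -2.01 (SE 0.29, limma adjusted p = 0.00718), 4.04-fold lower, and 2.50-fold lower with 64 added to each signal. The call ended without wild type replicate 2 (-1.98, limma adjusted p = 0.0534), with the gapdhs ratio (-1.68, limma adjusted p = 0.224) and with the actc1b ratio (-1.37, limma adjusted p = 0.388). Without wild type replicate 2, 114 of all tested probe sets passed, against 368 with all arrays.

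Another TRAPP gene, trappc2, was separated the same way without passing. Its log2 signals were 5.40, 6.37 and 5.61 in mutant embryos and 6.70, 6.61 and 6.94 in wild-type embryos, a change of -0.96 (SE 0.32, limma adjusted p = 0.134). Genes named after their values were seen included trappc5 at -0.35, trappc3 at -0.30, trappc8 at -0.01, trappc11 at -0.04 and trappc13 at 0.10. The genotypes overlapped for all 5. The median over the 7 TRAPP probe sets was -0.30.

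The AP-3 adaptor gene ap3m1 fell. AP-3 sorts cargo to lysosomes and to lysosome-related organelles, and in mouse and human its loss is known for pale pigmentation. The ap3m1 signals, which read its medium subunit, were 394, 325 and 348 in mutant embryos and 748, 695 and 624 in wild-type embryos. Replicates were close (log2 means 8.47 ± 0.14 and 9.42 ± 0.13, SD, n = 3 each), and the log2 fold change was -0.95 (SE 0.16, limma adjusted p = 0.0149), or 1.94-fold lower. Leaving out wild type replicate 2, mutant replicate 2 or mutant replicate 3 ended the call (largest adjusted p in limma 0.0791). In that order the change was -0.95, -0.89 and -0.94. The same fits passed 114, 200 and 170 of all tested probe sets, against 368 with all arrays. The change was -1.02 with the gapdhs ratio (limma adjusted p = 0.215) and -1.33 with the actc1b ratio (0.156), neither of which passed.

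The AP-3 genes were set apart from the other adaptors after their values were seen. Of 5 tested AP-3 probe sets, 4 had all mutant arrays below all wild-type arrays (13.8% of all tested probe sets did). The small subunit gene ap3s1 had log2 signals of 9.67, 9.59 and 9.69 in mutant embryos and 10.07, 10.12 and 10.74 in wild-type embryos. Its change of -0.66 did not pass (limma adjusted p = 0.0983) and was -0.44 without wild type replicate 3 and -0.08 with the actc1b ratio. The beta subunit gene ap3b1a was at -0.37 (limma adjusted p = 0.201) and ap3m2 at -0.42 (limma adjusted p = 0.262), while ap3s2 was at 0.56 with overlapping arrays (limma adjusted p = 0.274). The neural crest markers given above, a lineage that forms pigment cells, had lower summed signals in the mutant, and their part in the AP-3 values was not tested.

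The remaining adaptors did not pass. Across AP-1, which sorts at the trans-Golgi network, 7 probe sets had a median of -0.01. Its gamma subunit gene ap1g1, named after its values were seen, was at -1.40 with widely spread log2 signals of 6.28, 6.95 and 8.11 in mutant embryos and 9.09, 8.39 and 8.06 in wild-type embryos. The genotypes overlapped and the change did not pass (limma adjusted p = 0.121), although it did without mutant replicate 3 (-1.90, limma adjusted p = 0.0494) and with the gapdhs ratio (-2.76, 0.0354). The 4 probe sets of AP-2, the adaptor of endocytosis, read 3 genes, with 2 of the probe sets on ap2m1b (0.46 and 0.49). All 4 were above 0 (5597 of 10851 over all tested probe sets), from 0.07 to 0.49. The AP-2 and AP-4 genes were likewise named after their values were seen. Of these, ap2m1b, at 0.49 (limma adjusted p = 0.142), passed when wild type replicate 3 was left out (0.64, limma adjusted p = 0.0439) and in no other fit. AP-4 was read by ap4b1 (-0.64) and ap4m1 (0.32), both overlapping between genotypes.

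**Figure D3:**
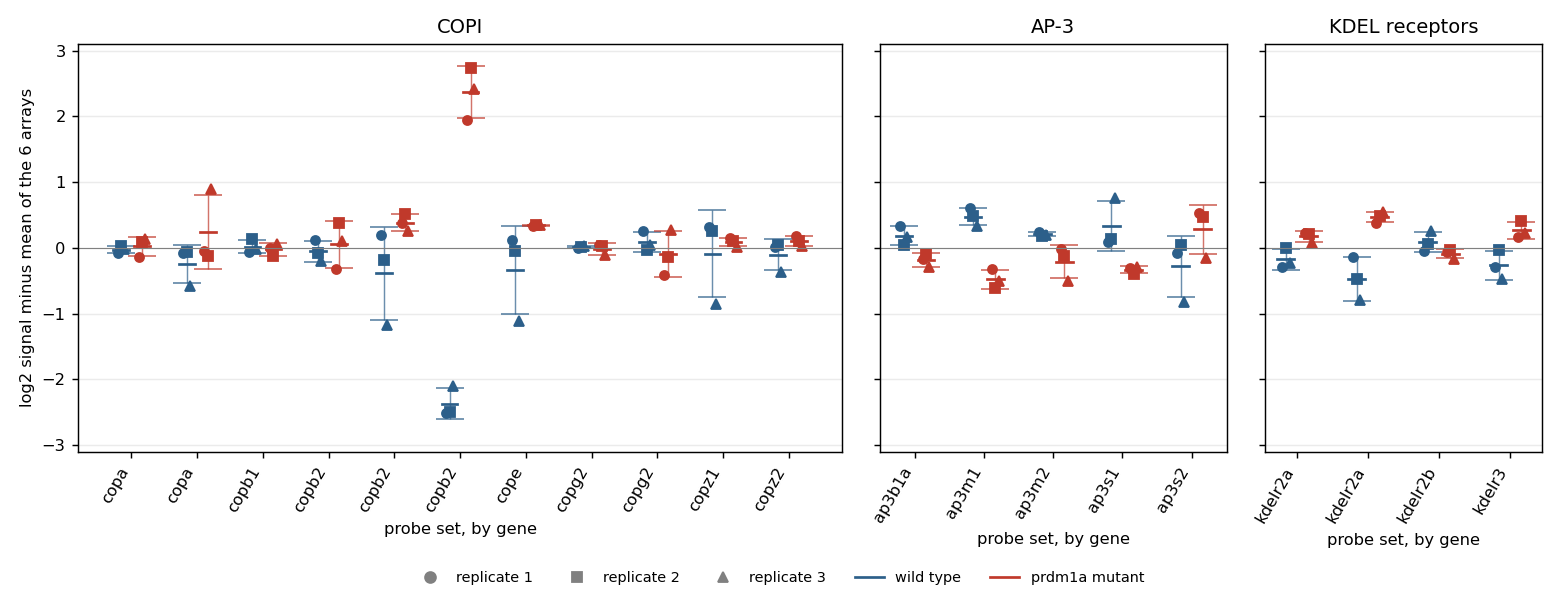
Log2 signal of each array minus the mean of the 6 arrays for the tested probe sets of the COPI coat, the AP-3 adaptor and the KDEL receptors; points are arrays (marker shape gives the replicate), lines are means and bars are SD (n = 3). Of the AP-3 probe sets, 4 of 5 lie lower in the mutant, the kdelr2a and kdelr3 probe sets lie higher, and wild type replicate 3 lies low for cope and copz1.

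Rab GTPases, the largest family with 43 probe sets of 36 genes, had no call among 35 tested. Their median log2 fold change was 0.02, with 19 above 0 and 16 below. At an unadjusted p under 0.05 in limma, 4 were above 0 and 4 below (10.2% and 10.3% over all). The arrays of the genotypes did not overlap for 5 higher and 7 lower in the mutant (13.2% and 13.8% over all). The early endosome gene rab5b was nearest the threshold. Its log2 signals were 7.50, 7.23 and 8.07 in mutant embryos and 8.58, 8.72 and 8.54 in wild-type embryos, a change of -1.01 (SE 0.23, limma adjusted p = 0.0523). It passed in 5 of 18 alternative fits, among them the fit without mutant replicate 3 (-1.25, limma adjusted p = 0.0341).

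The other Rab5 genes did not pass. The 2 probe sets of rab5aa gave opposite signs, 0.30 (log2 signals 10.63, 10.69 and 10.70 in the mutant; 10.45, 10.41 and 10.25 in wild-type embryos) and -0.38 (9.96, 10.03 and 9.58; 10.19, 10.17 and 10.35). In each the arrays did not overlap, and neither passed (limma adjusted p = 0.213 and 0.219). Named after their values were seen, rab5ab was at 0.17 and rab5c at -0.11. The recycling endosome gene rab11bb had log2 signals of 7.38, 7.17 and 7.81 in mutant embryos and 6.65, 5.71 and 4.88 in wild-type embryos. Its change of 1.70 (SE 0.42) did not pass (limma adjusted p = 0.0643), was 1.27 without wild type replicate 3 and passed without wild type replicate 1 (2.15, limma adjusted p = 0.0207). With the gapdhs and actc1b ratios it was 0.77 and 0.39. A second rab11bb probe set, outside the rule for named genes, was at 0.43 (limma adjusted p = 0.473). Near the filter level, and named after their values were seen, rab36 was at 1.18 with separated arrays (limma adjusted p = 0.0949) and rab12 at 1.17 with overlapping ones (limma adjusted p = 0.283). The other tested probe sets of rab36 and rab12 were at 0.22 and 0.50 and did not pass.

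Rab32a acts in the delivery of enzymes to melanosomes. Its log2 signals were 7.65, 7.80 and 7.81 in mutant embryos and 8.23, 8.33 and 8.19 in wild-type embryos, so every mutant array was lower. The change was -0.49 (SE 0.17, limma adjusted p = 0.151). Rab1 genes act between ER and Golgi, and of these, named after their values were seen, rab1ba was at -0.38 (limma adjusted p = 0.128), rab1ab at 0.00 and rab1bb at -0.11. The Golgi genes rab2a (-0.02) and rab6a (-0.04) and the late endosome gene rab7a (-0.08), also named afterwards, overlapped between genotypes. Among Rab partners, rab5if was at 0.32 and rab3gap2, a subunit of a Rab3 GTPase-activating complex, at 0.26, with limma adjusted p-values of 0.248 and 0.425.

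None of 21 tested Vps probe sets passed. Their median was 0.03, and all 5 with separated arrays were lower in the mutant (13.8% of all tested probe sets were separated lower and 13.2% higher). The tethering genes vps52 and vps53, whose products act in return traffic from endosomes to the Golgi, had the smallest p. For vps52 the log2 signals were 6.65, 7.17 and 6.98 in mutant embryos and 7.58, 7.58 and 7.76 in wild-type embryos, a change of -0.71 (SE 0.22, limma adjusted p = 0.115). A second vps52 probe set, outside the rule for named genes, was at -0.23 (limma adjusted p = 0.661). The vps53 signals were 9.01, 8.99 and 8.84 against 9.20, 9.46 and 9.56 on the log2 scale, a change of -0.46 (limma adjusted p = 0.147). Vps51 of the same tether, named afterwards, was at 0.03. Grouped into complexes after their values were seen, the 5 retromer probe sets had a median of 0.05, the 5 of HOPS and CORVET 0.05 and the 4 of ESCRT 0.04. In the HOPS group vps18, a gene known for pigment and liver defects when mutated in zebrafish, was at 0.17 (95% interval -0.22 to 0.56, limma adjusted p = 0.617). The single arf member, arf5 (-0.11, limma adjusted p = 0.656), and sec14l1, a lipid-binding family member taken by its symbol (0.09, limma adjusted p = 0.824), did not pass.

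Probe sets of the same gene differed in several cases. Of 15 genes with more than 1 tested probe set, 11 had the same sign on all of them and 4 had opposite signs (rab5aa, snap29, ssr1 and vps45). The median spread between the lowest and highest log2 fold change of a gene was 0.59, and the spread was at least 1 for 3 genes. These were copb2 (4.62), snap29 (2.93) and rab11bb (1.28).

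Other genes of the pathway, in 8 lists that the symbol rule does not take, showed 1 rise and 1 fall among 124 tested probe sets of 107 genes, against 1.54% higher and 1.85% lower over all tested probe sets. Their median log2 fold change was -0.06, with 53 above 0 and 71 below. The arrays of the genotypes did not overlap for 10 higher and 24 lower in the mutant (13.2% and 13.8% over all tested probe sets). At an unadjusted p under 0.05 in limma, 8 were above 0 and 16 below (10.2% and 10.3% over all). The ER exit site gene mia2, whose product helps to load large cargo into COPII carriers, rose by 1.17 on the log2 scale (SE 0.25, limma adjusted p = 0.0397), with means of 7.61 in mutant embryos and 6.44 in wild-type embryos, as the single call among 17 ER export receptors and organizers. The clathrin adaptor gene gga1, which sorts at the trans-Golgi network, changed by -1.01 (SE 0.16, limma adjusted p = 0.0124), with means of 8.66 and 9.67, as the single call among 22 probe sets of clathrin, dynamin and sorting nexin genes. No member passed among COPI and ARF cofactors (7 tested), SNARE fusion cofactors (15), exocyst and Rab cycle genes (13), golgins and the COG complex (14), signal recognition and targeting genes (29) and transcription factors of the secretory and unfolded protein programmes (7). In the same order, the smallest limma adjusted p of each list was 0.0634, 0.157, 0.0706, 0.357, 0.0586 and 0.226. The list of COPI and ARF cofactors also holds ARF-like genes, and its smallest p was that of arl6. That probe set had a wild-type mean log2 signal of 4.88, below the filter level, and a mutant mean of 6.50. The list of SNARE fusion cofactors also holds the SNARE genes gosr1, gosr2, use1 and ykt6. In the list of transcription factors, which includes xbp1, atf4a and creb3l2, the median was -0.10.

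**Figure D4:**
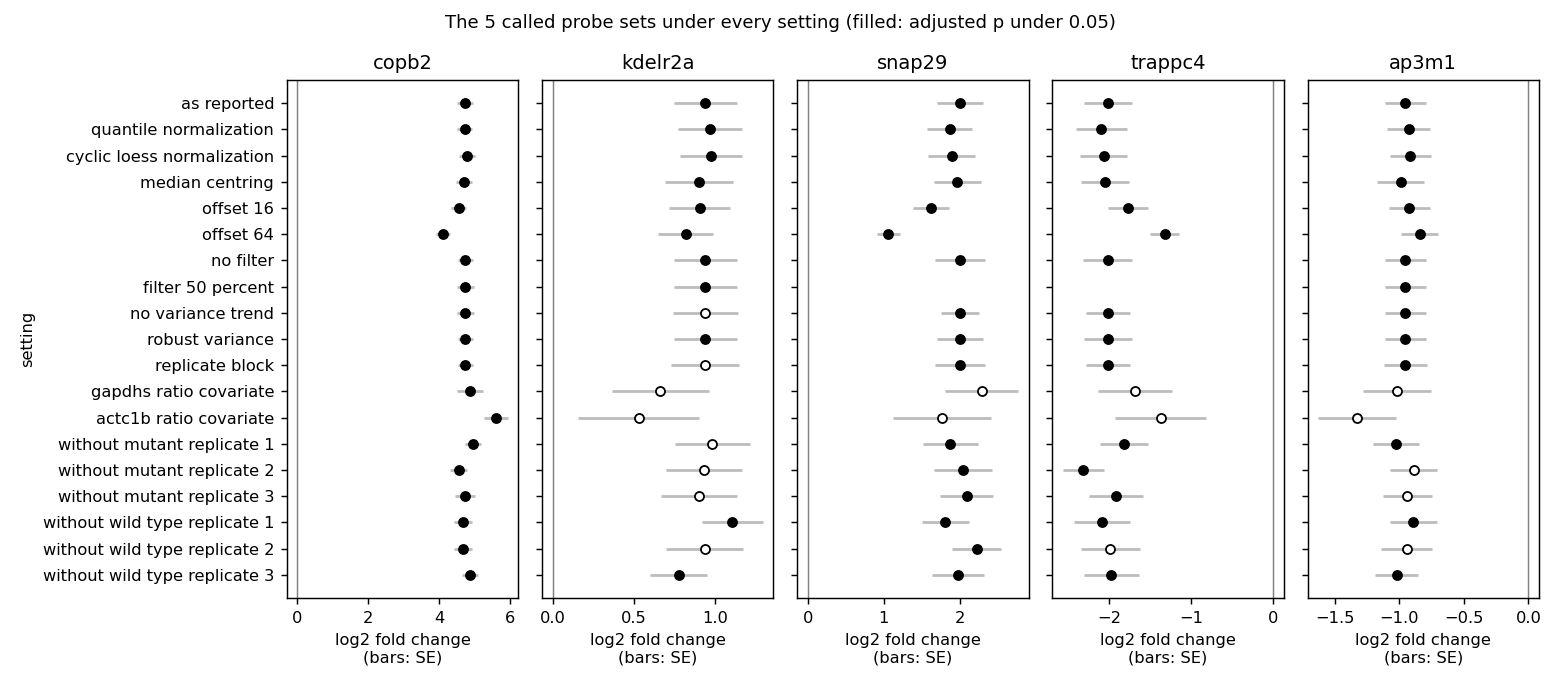
Log2 fold change of the 5 called probe sets as reported and under each alternative, with standard errors; filled points passed an adjusted p of 0.05, open points did not, and a missing point means that the probe set was not tested under that setting. Each probe set kept its direction in every fit, and copb2 passed in all of them.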

How the data were processed

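The 6 arrays (3 mutant, 3 wild type) were deposited as a table of probe set intensities on a linear scale, 1 column per array, made by the authors with MAS5, per the submitters' processing notes. The sources used here state neither version nor scaling target. The mean of the deposited intensities after trimming 2% was 500.13 to 500.14 on every array and medians were 132 to 148. Symbols came from a platform annotation (10802 probe sets with 1 symbol, 135 with several, 4680 with none); all 170 members were found in the RefSeq gene table of GRCz12tu, with no symbol changed. Control probe sets (115) and the dimmest 30% of the remaining 15502 (mean log2 signal under 5.36, or 41.1 on the linear scale) were set aside. The 10851 kept were fitted in R 4.3.3 with lmFit and eBayes (trend) of limma 3.58.1, with genotype as the only term. The fit was tested on simulated data with independent noise and no difference in RNA quality between the genotypes. That test therefore cannot show how the 3' over 5' difference of these arrays bears on the calls. Precision is limited by the number of arrays, and members had a median standard error of 0.192. Intervals use the moderated variance (95%).

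The members, gene lists, tests and alternatives were chosen with earlier results of these data known. Named genes were members past the threshold with all their probe sets, the 2 smallest p per role, and a set of genes with known zebrafish or synaptic roles; the text marks genes outside this rule as named after their values were seen. The level of prdm1a is not analysed here. Same-numbered arrays of the genotypes did not deviate together. Nothing in the labels ties replicates to separate clutches, and the spread behind each p-value may be technical. Alternatives were other normalizations, offsets of 16 and 64, other filters and variance models, the replicate number as a block, the 3' over 5' ratios as covariates and leaving out each array. Figures were drawn with matplotlib 3.10.9.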

Additional observations from a re-analysis of the deposited data

How the results depend on the processing

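Over 18 alternatives, 651 of 676 values of 38 named probe sets kept their direction and side of the threshold, or passed neither way, 18 no longer passed, 7 newly passed and none that passed changed sign. The count higher (3) was 1 with the gapdhs or the actc1b ratio as a covariate, and ran from 2 to 4 without single arrays. The count lower (2) was 1 with a 50% filter, 1 with the gapdhs ratio and 0 with the actc1b ratio, and ran from 0 (without wild type replicate 2) to 3 without single arrays. The 50% filter left trappc4 and snap29 untested. The call with the gapdhs ratio was that of ap1g1. The median was -0.0475 after median centring, and ran from -0.0362 (without mutant replicate 2) to 0.00589 (without mutant replicate 3) when single arrays were left out. Same-numbered arrays correlated at 0.06, 0.05 and -0.07 in their deviations from the group means and not every array correlated best with its own number. With the replicate number as a block, 2 members were higher and 2 lower, and 260 of all probe sets passed against 368. The kdelr2a call ended there (limma adjusted p = 0.0727) and without the variance trend (0.0638). Signals near the filter level limit the folds of snap29 and trappc4.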

Other observations

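The 22 probe sets below the filter level held no call when all probe sets were tested without a filter. The syntaxin gene stx11a, whose product acts in granule release of mammalian immune cells, had the smallest adjusted p among them. Its probe set Dr.12309.2.S1_at had log2 signals of 4.44, 4.64 and 5.72 in mutant embryos and 2.22, 2.35 and 1.92 in wild-type embryos, all but 1 of them below the filter level of 5.36. Its log2 fold change was 2.76 (limma adjusted p = 0.0541 without a filter). A second stx11a probe set was at -0.61 and overlapped between genotypes. Of the 148 tested members, wild type replicate 3 was the lowest of the 6 arrays for 31 (20.9%) and the highest for 37 (25%), against 20.8% and 23.3% of all tested probe sets. Mutant replicate 3 was the lowest for 34 (23%), against 15.1% of all tested probe sets. These shares are descriptions with no test.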
